A study of Mus musculus with 6 samples.

Results

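The 10 genes described here are the mouse G1 cyclins Ccnd1, Ccnd2, Ccnd3, Ccne1 and Ccne2, the kinases Cdk2, Cdk4 and Cdk6 that they bind, and the transcription factors E2f1 and E2f2. They were chosen by name for their role in the cell cycle, and each was found once among the 21878 genes in the tables. All 10 were among the 10620 genes tested. RNA was sequenced from bone marrow cells of WT mice that had eaten for 3 months either a control diet (CD) or a serine/glycine-free diet (SGFD), with 3 libraries per diet (CD1 to CD3 and SGFD1 to SGFD3). The sort kept Lin-, c-Kit+, Sca1+, CD34- and CD135- cells, the gate for long-term hematopoietic stem cells (LT-HSCs), the blood-forming cells that can sustain hematopoiesis for life. All mice were matched for background and kept under specific pathogen-free conditions. The strain, age and sex, and whether a library held 1 mouse or a pool, are not given in the sources used here. The p-values therefore cover only the spread among these libraries, which may be technical.

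Cells leave G1 in steps. The D cyclins (Ccnd1, Ccnd2, Ccnd3) respond to growth signals and switch on CDK4 and CDK6, which begin to phosphorylate the retinoblastoma (RB) proteins. RB proteins hold E2F factors inactive, and their release lets activator E2Fs such as E2F1 and E2F2 turn on genes of DNA replication, among them the E cyclins. Cyclin E then binds CDK2, completes RB phosphorylation and helps to start replication. LT-HSCs are mostly quiescent, and CDK6 is known as a kinase whose amount governs how readily blood stem cells leave quiescence.

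Levels are FPKM, fragment numbers divided by gene length and by library total, which allows genes of different length to be compared within a library. Whole fragments recovered from the FPKM came to 18687043 to 19850032 per library. The diets lay apart on the first principal component of all tested genes, which held 82.2% of the variance, while SGFD2 and SGFD3 lay at opposite ends of the second (7.25%). The labelled cell type was checked against marker lists. The 11 LT-HSC markers were detected in both diets but summed to 341 to 343 FPKM in CD and to 191 to 201 FPKM in SGFD, with 8 of the 10 tested markers lower and none higher. The 8 granulocyte-monocyte progenitor markers summed to 884 to 912 FPKM in CD and to 3466 to 3848 FPKM in SGFD. Of these 8, 7 were higher and none lower. Among all tested genes, 17.7% were higher and 41.8% lower. Cd34 and Flt3, whose proteins the gate selects against, together gave 576 to 601 FPKM in CD and 513 to 523 FPKM in SGFD. In CD the mean of Cd34 was above 98.9% of tested genes and that of Flt3 above 95.2%. CD means of the LT-HSC markers ran from 0.880 FPKM (Hoxb5, not tested) and 1.79 FPKM (Slamf1) to 122 FPKM (Kit). Those of the granulocyte-monocyte progenitor markers ran from 0.981 FPKM (Cebpe) to 475 FPKM (Mpo). The marker RNA therefore does not by itself establish the labelled cell type, in CD or in SGFD. The 5 T and NK cell markers summed to 102 to 107 FPKM in CD and 120 to 139 FPKM in SGFD. Nearly all of this was Nkg7 (means 104 and 133 FPKM), which was called higher (limma adjusted p = 0.000523). Cd3e was listed at 0 in every library.

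With SGFD, Ccne1 rose and Ccnd1 and Ccnd2 fell, and these calls were kept under all 13 other settings. Cdk4 was also called higher (kept under 12 of 13), and Ccnd3 and Cdk6 lower (each kept under 6 of 13). Ccne2, Cdk2, E2f1 and E2f2 did not pass the test. Of the 10 genes, 6 passed an adjusted p of 0.05 (limma on log2(FPKM + 1), Benjamini-Hochberg adjusted over all tested genes), 2 higher and 4 lower. Among all tested genes, 59.4% passed, 17.7% higher and 41.8% lower, so the count of calls among these 10 was close to the background. Their median log2 fold change was -0.14, beside -0.13 over all tested genes. Groups did not overlap for 5 of the 10 genes, beside 65.2% of all tested genes. In bulk RNA of this kind, fewer cells of a type and less RNA per cell cannot be told apart.

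**Figure D1:**
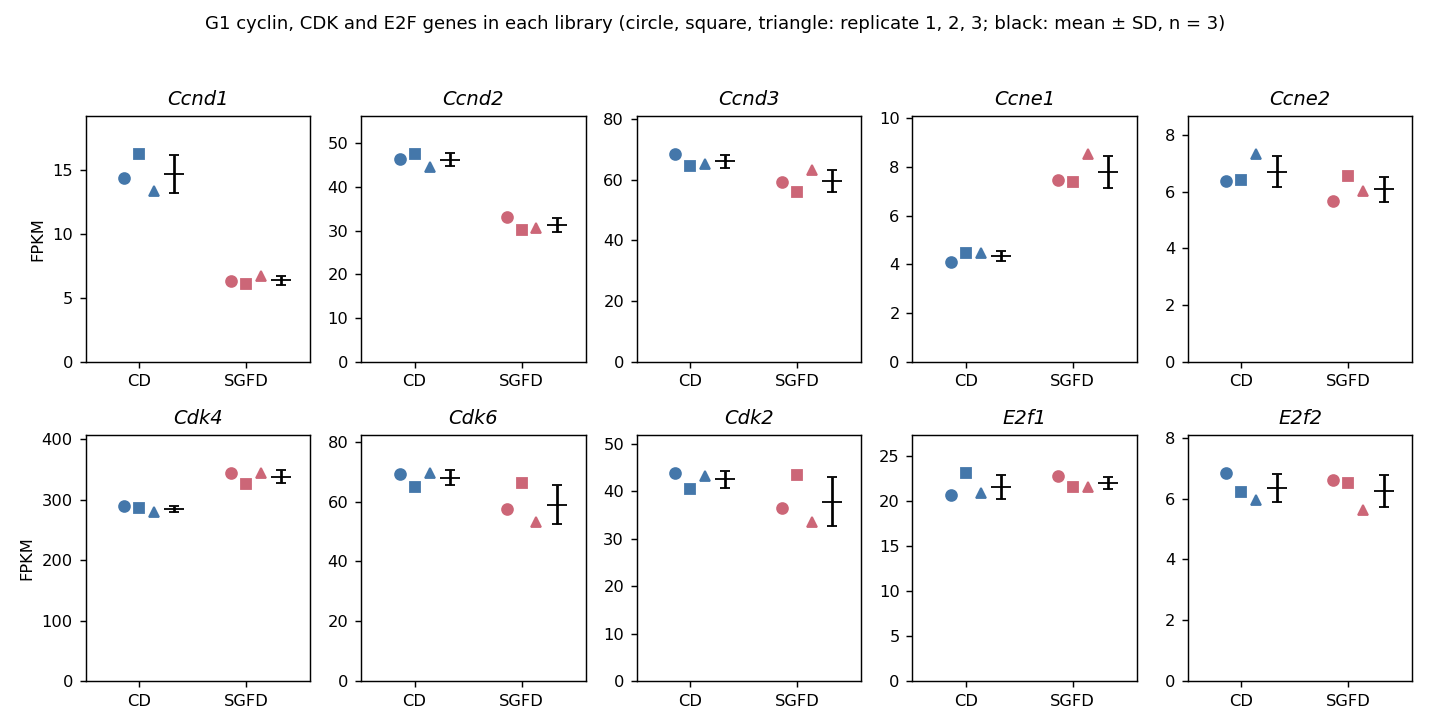
FPKM of each of the 10 genes, 1 panel per gene with a linear axis from 0, for the CD libraries (blue) and the SGFD libraries (red), with black marks for mean ± SD (n = 3). The SGFD points of Ccnd1 (6.06 to 6.73 FPKM) lie below and those of Ccne1 (7.36 to 8.55 FPKM) above all CD points, while the points of Ccne2, Cdk2, Cdk6, E2f1 and E2f2 overlap.

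Fold changes also moved with gene length across the whole table, in which short genes tended to be higher and long genes lower with SGFD. In the 10 equal bins of tested genes by length, the median log2 fold change went from 0.17 in the shortest (median 920 bases, 508 higher and 129 lower) to -0.39 in the longest (median 9530 bases, 28 higher and 848 lower). The median of its length bin is therefore given beside the change of each of the 10 genes, and the part of length in these changes was not tested.

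The means of the 3 D cyclins were all lower with SGFD, by different amounts, and the call of Ccnd3 depended on the settings. Ccnd1 is the D cyclin best known as a target of mitogen signalling. It was at 14.4, 16.3 and 13.3 FPKM in CD replicates 1 to 3 and at 6.32, 6.06 and 6.73 FPKM in SGFD replicates 1 to 3. Every SGFD library was below every CD library, and the SGFD libraries lay close together. Its mean fell from 14.7 ± 1.49 to 6.37 ± 0.340 FPKM (SD, n = 3 each), a 2.30-fold lower level. The log2 fold change was -1.08 ± 0.08 (SE; 95% interval -1.26 to -0.90, limma adjusted p = 4.43e-06), and only 0.414% of tested genes had a lower one. The length bin of Ccnd1 (3874 bases) had a median of -0.14.

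Ccnd2 is the D cyclin with the most FPKM after Ccnd3 in these libraries. It was at 46.5, 47.7 and 44.7 FPKM in CD and at 33.1, 30.2 and 30.7 FPKM in SGFD, again without overlap. The mean fell from 46.3 ± 1.51 to 31.4 ± 1.56 FPKM (SD, n = 3 each; log2 fold change -0.55 ± 0.05 SE, limma adjusted p = 1.79e-05). Of all tested genes, 9.62% had a lower fold change, and the length bin of Ccnd2 (6541 bases) had a median of -0.29.

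Ccnd3, the most abundant D cyclin here and one with known roles in blood cell expansion, was at 68.6, 64.4 and 65.2 FPKM in CD and at 59.3, 55.8 and 63.1 FPKM in SGFD. The groups did not overlap, but the highest SGFD library was close to the lowest CD library. The mean went from 66.1 ± 2.21 to 59.4 ± 3.64 FPKM (SD, n = 3 each; log2 fold change -0.15 ± 0.05 SE, 95% interval -0.27 to -0.04, limma adjusted p = 0.0269). The call was kept under 6 of 13 other settings. It was lost without CD1 (limma adjusted p = 0.11), CD3 (0.0547), SGFD1 (0.0675) or SGFD2 (0.067), and with median-ratio scaling between libraries the log2 fold change was -0.01 (limma adjusted p = 0.844). The length bin of Ccnd3 (2497 bases) had a median of -0.07.

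Ccnd1 fell most and Ccnd3 least, and Ccnd3 made up more of the D cyclin mRNA in every SGFD library than in any CD library. The summed FPKM of the 3 genes was 129, 128 and 123 in CD and 98.7, 92.1 and 101 in SGFD, without overlap. Ccnd1 made up 11.5 ± 0.995% of this sum in CD and 6.56 ± 0.144% in SGFD (SD, n = 3 each). Ccnd2 went from 36.4 ± 0.633% to 32.3 ± 1.57%, and Ccnd3 from 52.0 ± 1.59% to 61.1 ± 1.44%. Ratios within a library do not depend on scaling the library as a whole. Where genes differ in length, a ratio can still hold the trend with length. The length bin medians were -0.14 for Ccnd1, -0.29 for Ccnd2 and -0.07 for Ccnd3, and the part of length in these ratios and shares was not tested. The log2 ratio of Ccnd1 to Ccnd3 was -2.18 ± 0.17 in CD and -3.22 ± 0.01 in SGFD, and that of Ccnd1 to Ccnd2 was -1.66 ± 0.10 and -2.30 ± 0.10 (SD, n = 3 each). The log2 ratio of Ccnd2 to Ccnd3 was -0.51 ± 0.07 in CD and -0.92 ± 0.10 in SGFD. The groups did not overlap for any of these 3 ratios. In each case the exact two-sided permutation test gave p = 0.1, the smallest that 3 against 3 can give (0.12 adjusted over the 6 ratios compared), so the design cannot reach the threshold for a ratio.

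**Figure D2:**
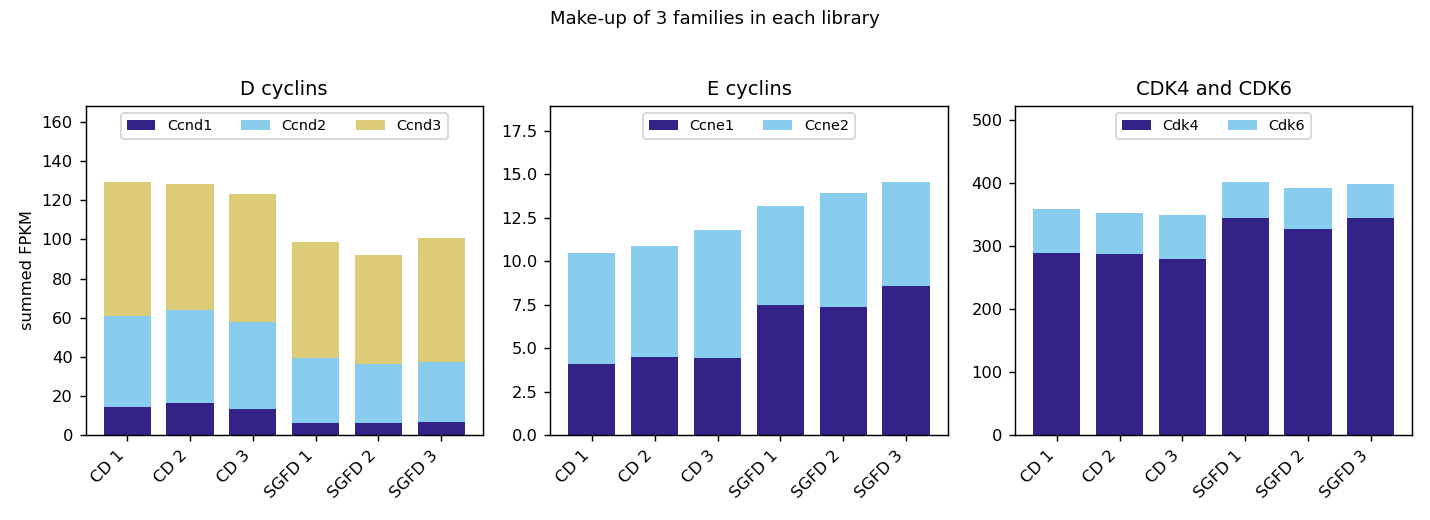
Summed FPKM in each library, as bars stacked by gene, for the D cyclins, for the E cyclins and for Cdk4 with Cdk6. The D cyclin bars are lower in every SGFD library (92.1 to 101) than in any CD library (123 to 129), and Ccne1 is the larger part of the E cyclin bar in every SGFD library.

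The mean levels of the kinases that bind D cyclins moved in opposite directions, but neither call was kept under every other setting. Cdk4 was the most abundant of the 10 genes, at 289, 287 and 279 FPKM in CD and 344, 326 and 345 FPKM in SGFD. All SGFD libraries were above all CD libraries. The mean rose from 285 ± 5.13 to 338 ± 10.6 FPKM (SD, n = 3 each), an 18.7% rise. Its log2 fold change was 0.25 ± 0.04 (SE; 95% interval 0.16 to 0.33, limma adjusted p = 0.000396), and its length bin (1420 bases) had a median of 0.04. Under quantile normalization, which forces the same distribution of values on every library, its fold change was -0.01 (limma adjusted p = 0.874), and the rise was kept under the other 12 settings.

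The start region of Cdk4 is shown because it was the promoter among these genes with the most CACGTG E-boxes, the element that MYC-family and related factors can bind. Within each window, only bases before the first annotated exon in it are printed, 5′ to 3′ on the gene's strand. Capitals mark CACGTG and the GC box GGGCGG or its complement. Cdk6, its partner kinase, and Ccne1, the other gene that rose, are given for comparison. The printed Cdk6 stretch lies inside the span of that gene by RefSeq (3341004 to 3531008), so its window is not at the first start of Cdk6.

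Cdk4, chr10:127063285-127063533 (+): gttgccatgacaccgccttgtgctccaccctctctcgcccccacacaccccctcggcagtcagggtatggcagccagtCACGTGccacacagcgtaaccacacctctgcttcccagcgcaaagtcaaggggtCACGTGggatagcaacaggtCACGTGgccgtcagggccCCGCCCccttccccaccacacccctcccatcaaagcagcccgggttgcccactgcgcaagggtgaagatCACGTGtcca
Cdk6, chr5:3343643-3343731 (+): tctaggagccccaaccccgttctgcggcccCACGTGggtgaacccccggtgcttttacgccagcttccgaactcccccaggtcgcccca
Ccne1, chr7:38107535-38107740 (-): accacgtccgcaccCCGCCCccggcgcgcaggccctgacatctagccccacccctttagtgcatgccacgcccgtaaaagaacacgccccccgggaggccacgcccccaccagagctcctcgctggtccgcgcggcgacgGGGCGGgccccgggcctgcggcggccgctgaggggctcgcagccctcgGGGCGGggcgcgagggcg

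The sequences come from the RefSeq promoter table of GRCm38.p6 (windows of 250 bases before to 50 after each start), which held 9 windows for 7 of the 10 genes: Ccnd3, Ccne1, Cdk2, Cdk4, Cdk6, E2f1 and E2f2. Cdk4 had 4 CACGTG matches, at positions -172 to -167, -118 to -113, -98 to -93 and -11 to -6 from the start. Cdk6 had 1, at -220 to -215 from the start of its window, which lies within the gene. Of all 32851 windows, 7.15% held CACGTG at least once and 0.0244% (8 windows) held it 4 times or more. CACGTG was picked after the sequences were seen, and 4 is the count found in Cdk4, so these shares test nothing. The E2F letters TTTCCCGC, TTTCGCGC, TTTGCCGC and TTTGGCGC, searched on both strands, occurred in 2.26% of all windows. Among these genes Cdk2 had 1 match, at -140 to -133, and E2f2 had 1, at 39 to 46 after the start of its first window. The E2f1 window, like that of Cdk6, lies inside the RefSeq span of its gene (154559400 to 154569892, minus strand). Its counts therefore do not describe the first start of E2f1. The second windows of Ccnd3 and E2f2 also lie inside their genes. GGGCGG, searched on both strands, was in 35.7% of all windows, and 4 or more copies were in 5.49%. Cdk2 had 6, E2f1 had 5 and Ccne1 had 4. The cell-cycle element TTTGAA or TTCGAA, on both strands, was in 19.2% of all windows and in 1 window of these genes, the second of E2f2. The matches describe letters and show no binding.

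Cdk6, the kinase known for its part in the exit of blood stem cells from quiescence, was at 69.1, 65.0 and 69.6 FPKM in CD and at 57.6, 66.1 and 53.1 FPKM in SGFD. SGFD2 lay inside the CD range and the other two SGFD libraries lay below it. The mean went from 67.9 ± 2.53 to 59.0 ± 6.61 FPKM (SD, n = 3 each; log2 fold change -0.21 ± 0.07 SE, limma adjusted p = 0.0269). The length bin of Cdk6 (11525 bases) had a lower median, -0.39. The call was kept under 6 of 13 other settings. It was lost without CD1 (limma adjusted p = 0.077), CD3 (0.0822), SGFD1 (0.0802) or SGFD3 (0.0873), and with median-ratio scaling (log2 fold change -0.07, limma adjusted p = 0.395). Without SGFD2 the fold change was -0.29 (limma adjusted p = 0.000897).

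The summed FPKM of Cdk4 and Cdk6 was 358, 352 and 349 in CD and 402, 392 and 398 in SGFD, and Cdk4 made up 80.7 ± 0.743% of it in CD and 85.1 ± 1.81% in SGFD (SD, n = 3 each). The log2 ratio of Cdk4 to Cdk6 was 2.07 ± 0.07 in CD and 2.53 ± 0.20 in SGFD (SD, n = 3 each), without overlap (exact two-sided permutation p = 0.1). These genes differ in length, and their length bins had medians of 0.04 for Cdk4 and -0.39 for Cdk6. Less these medians, the log2 fold changes were 0.20 for Cdk4 and 0.19 for Cdk6. The part of length in this ratio and in the share of Cdk4 was not tested. The D cyclin sum per unit of the Cdk4 and Cdk6 sum was 0.362, 0.365 and 0.353 in CD and 0.246, 0.235 and 0.253 in SGFD. D cyclin mRNA was thus lower relative to the mRNA of these kinases in each SGFD library. Here too the genes differ in length, and its part was not tested.

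The E cyclins did not move together. Ccne1 was at 4.08, 4.48 and 4.45 FPKM in CD and at 7.47, 7.36 and 8.55 FPKM in SGFD. The lowest SGFD library stood well above the highest CD library. Its mean rose 1.80-fold, from 4.34 ± 0.220 to 7.79 ± 0.653 FPKM (SD, n = 3 each). The log2 fold change was 0.72 ± 0.08 (SE; 95% interval 0.54 to 0.90, limma adjusted p = 5.86e-05), larger than in 98.3% of tested genes, and the length bin of Ccne1 (1956 bases) had a median near 0. It was the least abundant of the 10 genes in CD, resting on 153, 165 and 164 fragments there and on 281, 288 and 316 in SGFD. The exact 95% Poisson intervals, which cover counting error only, reached at most 5.21 FPKM in a CD library and at least 6.54 FPKM in an SGFD library, so they did not meet.

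Ccne2, the other E cyclin, was at 6.38, 6.41 and 7.35 FPKM in CD and at 5.68, 6.54 and 6.02 FPKM in SGFD, and the groups overlapped. Its log2 fold change was -0.12 ± 0.08 (SE; 95% interval -0.31 to 0.06, limma adjusted p = 0.219), its length bin (3435 bases) had a median of -0.14, and it passed under none of the 13 other settings. Ccne1 therefore held 39.0%, 41.1% and 37.7% of E cyclin FPKM in the CD libraries and 56.8%, 53.0% and 58.7% in the SGFD libraries. By these values, the minor E cyclin of every CD library was the major one of every SGFD library. In SGFD2, however, the exact 95% Poisson intervals of Ccne1 (6.54 to 8.27 FPKM) and Ccne2 (5.95 to 7.17 FPKM) overlapped. The log2 ratio of Ccne1 to Ccne2 went from -0.63 ± 0.10 to 0.36 ± 0.17 (SD, n = 3 each; exact two-sided permutation p = 0.1). D cyclin FPKM exceeded E cyclin FPKM 12.4-fold, 11.8-fold and 10.4-fold in the CD libraries and 7.51-fold, 6.63-fold and 6.90-fold in the SGFD libraries.

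Cdk2, the kinase of the E and A cyclins, was at 43.9, 40.4 and 43.2 FPKM in CD and at 36.5, 43.5 and 33.5 FPKM in SGFD. As for Cdk6, SGFD2 was the highest SGFD library and lay inside the CD range. The log2 fold change was -0.17 ± 0.08 (SE; 95% interval -0.35 to 0.01, limma adjusted p = 0.0887). Of the 13 other settings, Cdk2 passed under 1, without SGFD2 (-0.27, limma adjusted p = 0.00219). Without SGFD3 the log2 fold change was -0.09 (limma adjusted p = 0.303), and with median-ratio scaling it was -0.04 (0.701). The length bin of Cdk2 (2650 bases) had a median of -0.07.

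Neither activator E2F passed the test. E2f1 was at 20.8, 23.2 and 20.9 FPKM in CD and at 22.8, 21.6 and 21.6 FPKM in SGFD (log2 fold change 0.03 ± 0.06 SE, 95% interval -0.11 to 0.16, limma adjusted p = 0.729). E2f2 was at 6.86, 6.23 and 5.95 FPKM in CD and at 6.61, 6.51 and 5.64 FPKM in SGFD (log2 fold change -0.02 ± 0.08 SE, 95% interval -0.21 to 0.17, limma adjusted p = 0.861). The medians of their length bins were -0.08 for E2f1 (3099 bases) and -0.25 for E2f2 (5003 bases). The diets overlapped for both genes, and the intervals bound the change rather than show that there was none. E2f1 passed with median-ratio scaling (0.16, limma adjusted p = 0.0454) and E2f2 with quantile normalization (0.21, limma adjusted p = 0.0486), both higher. The log2 ratio of E2f1 to E2f2 was 1.77 ± 0.15 in CD and 1.82 ± 0.11 in SGFD (SD, n = 3 each; exact two-sided permutation p = 0.7).

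**Figure D3:**
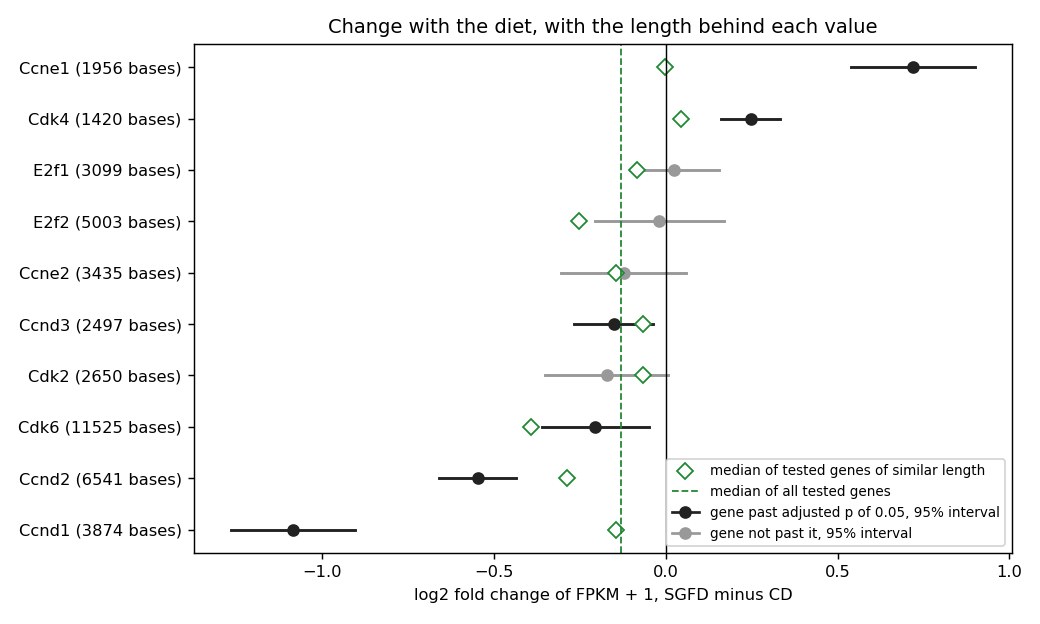
Log2 fold change of SGFD over CD on log2(FPKM + 1) for each of the 10 genes with 95% intervals (black where past the adjusted p of 0.05, grey where not), the median of tested genes of similar length (open diamond) and that of all tested genes (dashed line, -0.13). Ccnd1 (-1.08) and Ccne1 (0.72) stand at the ends, far from their diamonds, and the intervals of Ccne2, Cdk2, E2f1 and E2f2 cross 0.

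The order of levels differed in part between diets. In CD the order by mean FPKM was Cdk4, Cdk6, Ccnd3, Ccnd2, Cdk2, E2f1, Ccnd1, Ccne2, E2f2 and Ccne1. The ranges of the CD libraries overlapped between Cdk6 and Ccnd3 and between Ccne2 and E2f2, so these neighbours were not separated. In SGFD it was Cdk4, Ccnd3, Cdk6, Cdk2, Ccnd2, E2f1, Ccne1, Ccnd1, E2f2 and Ccne2. The SGFD ranges overlapped between Ccnd3 and Cdk6, between Ccnd1 and E2f2 and between E2f2 and Ccne2. Ccne1 went from rank 10 to rank 7, Ccnd1 from rank 7 to rank 8, and Cdk2 passed Ccnd2. Among all tested genes, Ccnd1 went from percentile 53.8 of the mean level to 33.2, and Ccne1 from 19.5 to 38.7.

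By RefSeq on GRCm38.p6, the 4 genes with the most stable changes or the highest level lie as follows. Ccnd1 is on chromosome 7 from 144929931 to 144939831 and Ccne1 is on the same chromosome from 38097984 to 38107490, both on the minus strand. Ccnd2 is on chromosome 6 from 127125162 to 127152188 (minus strand), and Cdk4 is on chromosome 10 from 127063535 to 127067288 (plus strand). By GENCODE, 7 of the 10 genes share exon bases with a gene on the opposite strand, and Ccne1, E2f1 and E2f2 share none. Ccnd1 shares 1100 with the protein-coding gene LTO1, Ccnd2 shares 372 with Gm43126 and 368 with 9330179D12Rik, and Cdk6 shares 368 with Gm17590. Cdk4 shares 641 with Tspan31 (33.8 FPKM in CD and 36.1 FPKM in SGFD on average), far below Cdk4 in level. Ccne2 shares 609 with Ints8, which at 10.4 FPKM in CD and 7.84 FPKM in SGFD was above Ccne2 itself and had a lower mean with SGFD. Ccnd3 shares 361 with Bysl (10.9 and 14.5 FPKM), whose mean was higher with SGFD, and Cdk2 shares 34 with Pmel (0.551 and 0.579 FPKM). The library kit keeps strand, but whether counting used it is not given in the sources used here, so values of these overlapping pairs are uncertain by the reads they share.

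The other genes of the pathway were taken from 7 lists with 67 genes, of which 65 were tested, and 18 rose and 17 fell, beside 17.7% higher and 41.8% lower among all tested genes. With median-ratio scaling the lists had 34 higher and 7 lower. Length bin medians are not given for the genes of these lists, and the part of length in their changes was not tested. The RB family, the pocket proteins that hold E2Fs, fell in 3 of 3 members (median log2 fold change -0.30), in a table in which 41.8% of tested genes fell. Rb1 fell from 7.30 ± 0.0929 to 5.73 ± 0.458 FPKM (limma adjusted p = 0.00588), Rbl1 from 25.9 ± 0.740 to 21.7 ± 0.553 FPKM (0.00192), and Rbl2 from 23.2 ± 0.335 to 16.8 ± 0.548 FPKM (7.70e-05; SD, n = 3 each). Under quantile normalization the Rb1 call was lost (limma adjusted p = 0.373), as was the Rbl1 call with median-ratio scaling (0.07).

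Of the 8 other E2F and DP genes, 2 rose and 5 fell (median -0.25), beside 17.7% and 41.8% of all tested genes. With median-ratio scaling 3 were higher and 3 lower, and with quantile normalization 1 and 2. The activator E2f3 fell from 10.01 ± 0.615 to 6.19 ± 0.544 FPKM (limma adjusted p = 0.000134), unlike E2f1 and E2f2, which did not pass; the difference between them was not tested. Tfdp2, a partner of E2Fs on DNA, fell from 12.6 ± 0.321 to 8.94 ± 0.608 FPKM (0.000312), and E2f5, a repressor E2F, from 5.08 ± 0.217 to 3.61 ± 0.637 FPKM (0.00720), a call lost under quantile normalization (0.256). E2f8, an atypical repressor that is itself an E2F target, rose from 19.7 ± 0.318 to 23.6 ± 1.25 FPKM (0.00340; SD, n = 3 each). Tfdp1 rose from 75.9 ± 2.15 to 82.0 ± 2.84 FPKM (limma adjusted p = 0.0482) but did not pass when any 1 of the 6 libraries was left out (adjusted p from 0.0532 to 0.178) or under quantile normalization (0.954).

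Of the 7 CDK inhibitor genes, 5 were tested, with 1 higher and 1 lower (with either other scaling, 2 higher and 0 lower). Among all tested genes, 17.7% were higher and 41.8% lower. Cdkn1a, which encodes p21, was at 31.7, 27.7 and 27.8 FPKM in CD and at 92.9, 102 and 79.6 FPKM in SGFD. Every SGFD library was above every CD library by a wide margin (log2 fold change 1.62 ± 0.08 SE, limma adjusted p = 2.69e-07). Cdkn1c, which encodes p57 and is known from quiescent stem cells, went from 4.44 ± 0.511 to 3.29 ± 0.645 FPKM (SD, n = 3 each; limma adjusted p = 0.0256). Cdkn1c no longer passed when CD1, CD2, SGFD1 or SGFD2 was left out (adjusted p from 0.0735 to 0.0847), or with median-ratio scaling (0.117) or quantile normalization (0.65). Cdkn1b (p27) was at 29.3 ± 1.36 and 28.4 ± 5.12 FPKM (limma adjusted p = 0.654), and without SGFD2 it passed as lower (-0.19, 0.0192). Of the inhibitors of CDK4 and CDK6, Cdkn2c was at 15.5 ± 1.20 and 16.3 ± 2.70 FPKM (limma adjusted p = 0.652) and Cdkn2d at 19.6 ± 0.938 and 21.4 ± 1.45 FPKM (0.116; SD, n = 3 each). Cdkn2d passed as higher with median-ratio scaling (0.26, limma adjusted p = 0.00489) and quantile normalization (0.21, 0.0180). Cdkn2b was listed at 0 in every library, and Cdkn2a was listed at 0 except for 0.0467 FPKM in CD2.

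Among the 8 genes of the CDK-activating kinase and the kinases and phosphatases that set inhibitory CDK phosphorylation, 1 rose and 2 fell (median -0.01). Of all tested genes, 17.7% were higher and 41.8% lower. In this list 4 were higher and 1 lower with median-ratio scaling, and 3 and 1 with quantile normalization. Wee1, which places the inhibitory phosphate on CDK1 and CDK2, fell from 28.4 ± 0.651 to 18.4 ± 0.421 FPKM (limma adjusted p = 9.15e-06). Pkmyt1, a related kinase of CDK1, rose from 24.7 ± 1.71 to 28.6 ± 1.67 FPKM (0.0172). Cdk7, the catalytic subunit of the CDK-activating kinase, went from 6.20 ± 0.405 to 5.11 ± 0.408 FPKM (SD, n = 3 each; limma adjusted p = 0.0295). The Pkmyt1 call was lost without CD2 (0.0676) or CD3 (0.0642), and the Cdk7 call without CD1 (0.123), CD3 (0.0506) or SGFD3 (0.0878) and with median-ratio scaling (0.225) or quantile normalization (0.965).

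Of the 10 genes for turnover of cyclins and inhibitors, 1 rose and 5 fell (median -0.15), the latter near the 41.8% of all tested genes. Cks1b, which helps the SKP2 ligase to bind p27, rose from 106 ± 3.86 to 140 ± 6.19 FPKM (limma adjusted p = 6.33e-05). Cul1, the scaffold of SCF ligases, fell from 45.5 ± 1.81 to 39.5 ± 0.724 FPKM (0.00380), and Fbxo4, an F-box protein studied for cyclin D1, from 3.80 ± 0.558 to 2.52 ± 0.312 FPKM (0.00517; SD, n = 3 each). Fbxw7, the F-box protein that targets cyclin E, fell from 2.83 ± 0.290 to 2.01 ± 0.290 FPKM (limma adjusted p = 0.0135) and did not pass when CD3 was left out (0.0604). Median-ratio scaling ended the calls of Cul1 (0.262) and Fbxw7 (0.0503), and quantile normalization those of Fbxo4 (0.209) and Fbxw7 (0.529). With median-ratio scaling this list had 3 higher and 1 lower, and with quantile normalization 1 higher and 2 lower.

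The list of 4 cyclins of S phase and mitosis with Cdk1 had 3 of 5 genes higher and none lower (median 0.14), beside 17.7% higher and 41.8% lower among all tested genes. Ccna2 rose from 46.4 ± 0.991 to 52.4 ± 0.313 FPKM (limma adjusted p = 0.00487) and Ccnb1 from 32.7 ± 1.47 to 41.3 ± 3.32 FPKM (0.00127; SD, n = 3 each). Ccnb2 went from 52.9 ± 3.13 to 58.4 ± 2.65 FPKM (limma adjusted p = 0.0445) and did not pass when CD2, CD3, SGFD1 or SGFD2 was left out (adjusted p from 0.0878 to 0.182), or with quantile normalization (0.333).

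Of 26 known E2F target genes, most of them of DNA replication, 10 rose and 1 fell (median 0.08), beside 17.7% higher and 41.8% lower among all tested genes. Rrm2, a ribonucleotide reductase subunit, rose from 45.8 ± 2.31 to 60.8 ± 2.49 FPKM (limma adjusted p = 0.000115). Tk1, the thymidine kinase of the cytosol, rose from 34.0 ± 1.58 to 45.1 ± 1.73 FPKM (0.000133), and Mcm7, a helicase subunit, from 161 ± 5.51 to 192 ± 5.61 FPKM (0.000491; SD, n = 3 each). Uhrf1, a factor of DNA methylation upkeep, fell from 78.8 ± 1.32 to 71.1 ± 1.66 FPKM (limma adjusted p = 0.00932). The split of this list depended on scaling, with 18 higher and 0 lower by median-ratio scaling and 9 higher and 9 lower by quantile normalization, and the Mcm7 call was lost in the latter (limma adjusted p = 0.27) and the Uhrf1 call in the former (0.873). In the same libraries the proliferation genes did not move one way: Mki67 fell from 71.9 ± 1.46 to 61.5 ± 2.25 FPKM (limma adjusted p = 0.00151), and Top2a was at 138 ± 1.58 and 147 ± 4.86 FPKM (0.0617; SD, n = 3 each).

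**Figure D4:**
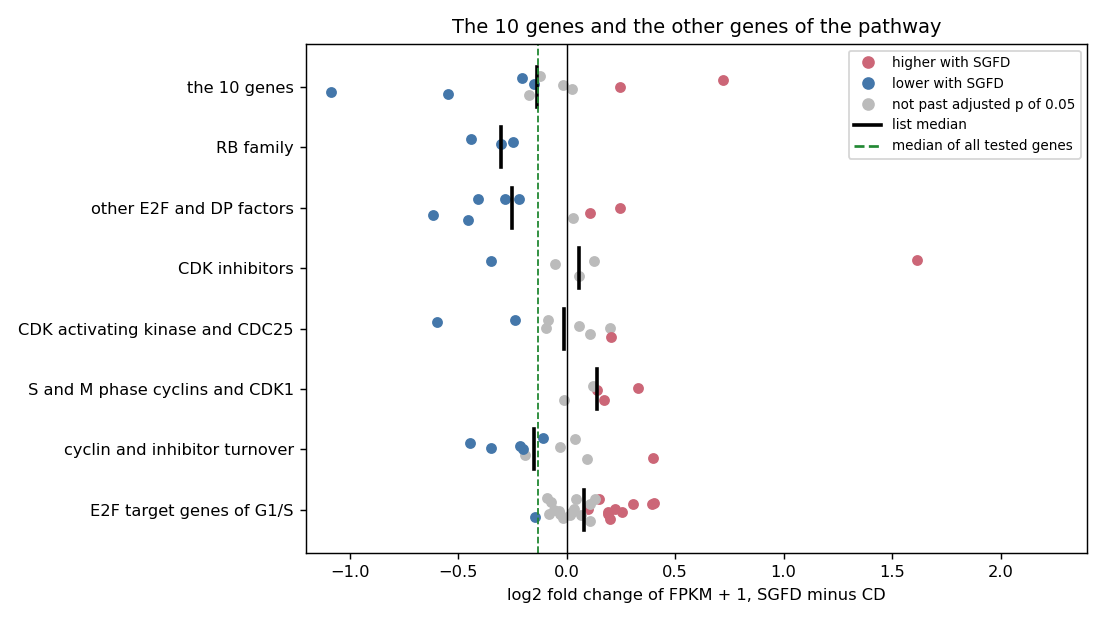
Log2 fold change of SGFD over CD for each tested gene, with the 10 genes in the top row and the 7 pathway lists below (red higher and blue lower past the adjusted p of 0.05, grey not past it), a black bar at each median and a dashed line at the median of all tested genes. All 3 RB family points lie below 0, Cdkn1a stands alone at 1.62, and the E2F targets have a median of 0.08.

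Markers of other cells moved with the diet beside these changes, and their part in them was not tested. The counts below stand beside 17.7% higher and 41.8% lower among all tested genes. Beside the granulocyte-monocyte progenitor list, the 6 monocyte markers summed to 178 to 187 FPKM in CD and 305 to 335 FPKM in SGFD (5 higher, none lower), and the 6 neutrophil markers to 11.4 to 11.7 and 34.6 to 38.0 FPKM (5 of 5 tested higher). Erythroid markers summed to 216 to 224 FPKM in CD and 97.1 to 101 FPKM in SGFD (4 of 4 tested lower), and macrophage markers to 7.28 to 8.47 and 1.05 to 1.54 FPKM (4 of 4 tested lower). B cell markers summed to 27.3 to 36.7 FPKM in CD and 25.5 to 26.4 FPKM in SGFD (3 of 4 tested lower). Megakaryocyte markers summed to 46.7 to 51.0 and 49.3 to 50.4 FPKM (of 3 tested, 1 higher and 1 lower). Stroma and endothelium markers summed to 31.8 to 35.1 and 35.4 to 38.6 FPKM (1 of 1 tested higher). Nearly all of this was Pecam1 (means 32.5 and 36.8 FPKM), and Col1a1, Col1a2, Cxcl12 and Cdh5 were each below 1 FPKM. Single genes also held much of other sums. Mean FPKM in CD and SGFD was 146 and 136 for the monocyte marker Lyz2 and 23.1 and 24.0 for the B cell marker Cd79b, neither called. It was 192 and 89.4 for the erythroid marker Car2 (lower) and 36.1 and 42.5 for the megakaryocyte marker Itga2b (higher). The proliferation list summed to 208 to 212 FPKM in CD and 204 to 216 FPKM in SGFD, with overlapping ranges. In CD the mean of Mki67 was above 91.5% of tested genes and that of Top2a above 96.2%. The shares in SGFD were 89.0% and 96.0%, so RNA of both genes was high in both diets.

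Calls for 3 of the 10 genes, Ccnd1, Ccnd2 and Ccne1, were kept under all 13 other settings. The log2 fold change ranged from -1.19 to -0.90 for Ccnd1, from -0.59 to -0.41 for Ccnd2 and from 0.66 to 0.96 for Ccne1.

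**Figure D5:**
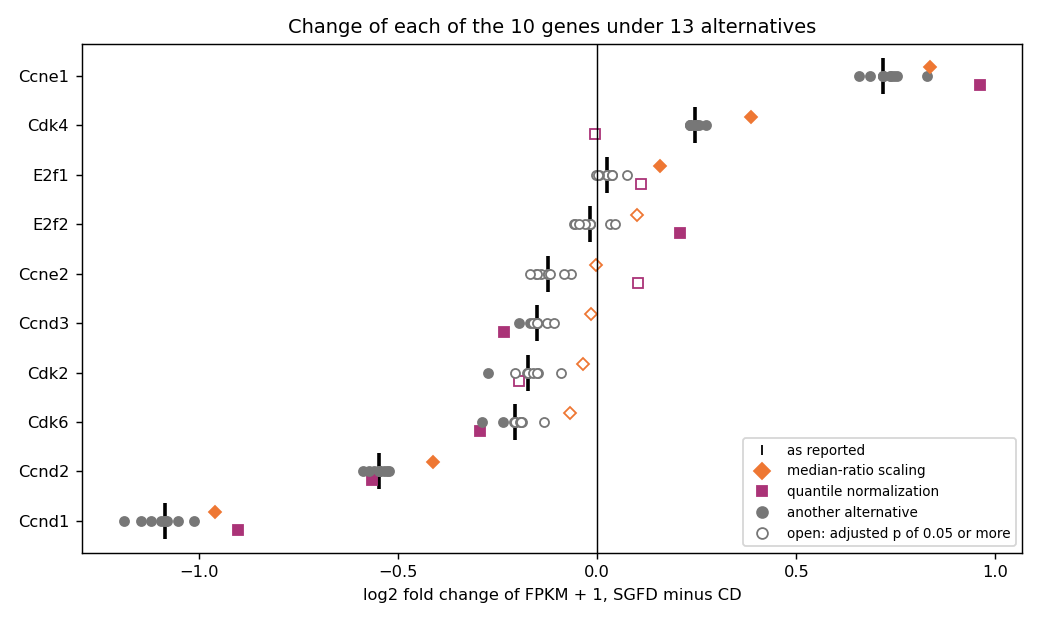
Log2 fold change of SGFD over CD for each of the 10 genes as reported (black bar) and under 13 other settings, with diamonds for median-ratio scaling, squares for quantile normalization, circles for the others, and open symbols for values not past the adjusted p of 0.05. Ccnd1, Ccnd2 and Ccne1 stay on their side of 0 with filled symbols throughout, and the quantile square of Cdk4 lies at about 0.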

How the data were processed

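The deposited tables hold 1 value per gene and library. The values are taken as FPKM, which the authors computed from their reads; the unit was inferred from the values, since every gene above 0 (15509 genes) fitted whole fragment numbers in all 6 libraries, to within 0.01 fragments. The submitters' processing notes name fastp, HISAT2, StringTie and the builds GRCm38 and mm10; versions are not given in the sources used here.

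From these values, log2(FPKM + 1) was fitted with limma 3.58.1 in R 4.3.3 (empirical Bayes, robust, with a trend). A gene entered the fit if 3 or more of the 6 libraries reached 1 FPKM, which 10620 did. Two-sided p-values were adjusted over them by Benjamini-Hochberg. The added 1 makes a fold change on the log2(FPKM + 1) scale too small for low genes; fold and percent changes of levels are ratios of mean FPKM. Ratios within a library were compared by exact permutation tests. The fit was tested on simulated data with the same spread for every gene and 200 changed genes. It called 100% of the changed genes, and 6.10% of its calls were false. This setting was simpler than the data, in which 59.4% of tested genes passed.

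The 10 genes and the lists were chosen with earlier results of these data known. The text names all 10, every RB family and CDK inhibitor gene, and per other pathway list up to 3 genes of smallest adjusted p in each direction past the threshold; Mki67 and Top2a were added from the proliferation markers. The CACGTG motif was added after the sequences were seen. Alternatives were 2 other filters, another pseudocount, 2 scalings, a replicate block, a plain variance model and leaving out each of the 6 libraries.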

Additional observations from a re-analysis of the deposited data

How the results depend on the processing

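All 13 alternatives kept the direction and the call of Ccnd1, Ccnd2 and Ccne1. The fold changes of Cdk4 (-0.00596) and Cdk7 (0.00458) changed sign under quantile normalization without passing, and that of E2f2 did so and passed (0.208); that of Ccne2 went from -0.12 to 0.10 without passing. The cause was not tested. Median-ratio scaling moved the median log2 fold change of all genes from -0.13 to -0.01 and quantile normalization moved it to -0.02. The share of calls that were higher went from 29.7% to 51.8% and 47.0%. All tested genes gave 1875 higher and 4438 lower calls, 3054 and 2844 with median-ratio scaling, and 2552 lower with quantile normalization. The pathway lists then gave 34 higher and 7 lower calls with median-ratio scaling. Of the 10 genes, 2 were called lower, not 4, without a filter, with median-ratio scaling and with neither trend nor robust settings. Leaving out 1 library gave 2 to 4 lower calls among the 10 genes, 1596 to 1922 higher and 3588 to 4606 lower calls among all genes, and 14 to 18 higher and 12 to 17 lower in the pathway lists. The difference between diets in the log2 ratio of Ccnd1 to Ccnd2 (-0.64), Ccnd1 to Ccnd3 (-1.05) and Cdk4 to Cdk6 (0.46) was -0.34, -0.67 and 0.29 under quantile normalization, and that of E2f1 to E2f2 (0.05) was -0.099. For Ccne1 to Ccne2 it was 0.99, and 0.84 with a pseudocount of 1. Leaving out 1 library, these differences ran from -0.69 to -0.58, -1.10 to -0.95, 0.37 to 0.57, -0.04 to 0.11 and 0.91 to 1.08, and that of Ccnd2 to Ccnd3 from -0.45 to -0.35.

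With the replicate number as a block, 1706 genes were higher and 4087 lower, the same 6 of the 10 genes were called in the same directions, and the pathway lists gave 15 higher and 15 lower calls. Deviations from the diet means correlated at -0.00677, -0.227 and -0.133 for same-numbered libraries, and at -0.0948 to 0.216 for different-numbered ones. With 3 libraries per mean these values are tied to each other, so they cannot decide whether the numbers pair the libraries. Depth limits Ccne1 most, with 153 to 316 fragments per library.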
